A study of Mus musculus with 6 samples.

Results

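Both mouse lysozyme genes and 4 further products of Paneth cells were followed over 6 arrays of bowel RNA from mice with colitis. The 6 genes were Lyz1, Lyz2, Ang4, Itln1, Pla2g2a and Defa24, taken from the 18194 genes for which the platform annotation gave a probe set that named no other gene. Every probe set mapped to 1 of these genes alone was used, which gave 8 probe sets for 5 genes (3 for Lyz1, 2 for Ang4, and 1 each for Lyz2, Itln1 and Pla2g2a). Defa24 had none of its own, and the probe set it shares with Defa30 is described beside the others. The genes were chosen by values of these arrays, namely the difference of Lyz2 between the genotypes and the high level of the others on 2 arrays, so the values of these probe sets are a description.

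The deficient group was 3 C57BL/6 mice with a floxed Pparg gene (PPAR g fl/fl) and a Cre recombinase driven from the lysozyme M promoter (Lysozyme M cre+), and the control group was 3 Cre-negative littermates that also carried the floxed gene (Lysozyme M cre-). All 6 mice, 6 to 8 weeks of age, had received 2.5% dextran sodium sulfate (DSS), a polymer that injures the colonic epithelium, in the drinking water, and tissue was taken on day 7, so neither untreated bowel nor wild-type Pparg was measured. Each array held total RNA from 1 mouse, labelled as whole colon and as a biological replicate. Pparg encodes the nuclear receptor PPAR gamma, and the comparison asked what its loss in myeloid cells does to the inflamed bowel. Lysozyme M is the product of Lyz2 and is made by macrophages and neutrophils, so 1 gene described here is also the gene whose promoter drives Cre. Whether a deficient mouse carried Cre on 1 or both copies of that locus is not given in the sources used here, so an effect of the Cre insertion on Lyz2 and an effect of Pparg loss cannot be told apart.

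Paneth cells sit at the base of the crypts of the small intestine and release granules of antimicrobial proteins, and they are rare or missing in most of the healthy mouse colon. Lysozyme cuts the peptidoglycan of bacterial walls. In mice the gene is duplicated, with Lyz1 made mainly by Paneth cells and Lyz2 mainly by myeloid cells. Ang4 encodes a ribonuclease with microbicidal activity, Itln1 encodes intelectin, a lectin for sugars of microbial surfaces, Pla2g2a encodes a secreted phospholipase that attacks bacterial membranes, and Defa24 encodes an alpha-defensin, a peptide that disrupts bacterial membranes.

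Lyz1 and Lyz2 are neighbours on chromosome 10 with 0 protein-coding genes between them in the RefSeq annotation. Their promoters are shown because they are close copies of each other, and because Cre was driven from one of them. In RefSeq windows of 250 bases before to 50 bases after the gene start, 249 of 302 aligned positions were identical (82.5%), and 49 of 50 after the start. The capitals mark the longest run that both share, 86 bases from 50 before the start to 36 after it.
Lyz1 promoter, GRCm38.p6, chr10:117292819-117293118, minus strand: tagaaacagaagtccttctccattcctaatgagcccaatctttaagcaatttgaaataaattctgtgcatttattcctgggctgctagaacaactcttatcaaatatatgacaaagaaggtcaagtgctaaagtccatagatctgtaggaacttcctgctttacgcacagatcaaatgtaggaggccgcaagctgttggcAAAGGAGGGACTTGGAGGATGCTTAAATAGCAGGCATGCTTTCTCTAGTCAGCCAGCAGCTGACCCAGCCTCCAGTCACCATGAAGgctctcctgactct
Lyz2 promoter, GRCm38.p6, chr10:117282223-117282522, minus strand: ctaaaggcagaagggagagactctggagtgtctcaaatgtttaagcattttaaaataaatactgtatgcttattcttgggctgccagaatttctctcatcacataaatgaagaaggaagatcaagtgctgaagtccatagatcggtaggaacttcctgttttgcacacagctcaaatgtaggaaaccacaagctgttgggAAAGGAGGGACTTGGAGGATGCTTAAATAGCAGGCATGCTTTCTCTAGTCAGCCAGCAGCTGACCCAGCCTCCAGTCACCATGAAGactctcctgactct
The windows of Ang4 and Itln1 aligned to the lysozyme windows and to each other with 45.6% to 50.7% identical positions, and the promoter table held 4 of the 6 genes. 3 short motifs, none of which contains another, were searched on both strands. TATAAA, the TATA box, occurred in 14.2% of 27025 promoters of the same length, CTTTGAT, bound by the TCF factors of the Wnt pathway, in 3.72% and GAGGAAGT, bound by the myeloid factor PU.1, in 3.28%. None of the 3 motifs was found in any of the 4 windows, which says only that these letters are not there.

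The bowel profile of each array was read from genes outside the 6. Apoa1, an apolipoprotein of small intestinal enterocytes, stood at log2 15.23 on deficient replicate 3 and 15.46 on control replicate 1, and between 3.82 and 7.38 on the other 4 arrays. Car1, a carbonic anhydrase of colonocytes, stood at 7.02 and 2.83 on the same 2 arrays and between 13.60 and 15.32 on the others. The colon markers separated the arrays less fully than those of the small intestine: 3 of 6 measured (Car1, the water channel Aqp8 and the homeobox gene Hoxa10) were higher on all 4 other arrays than on these 2, while Car4, another carbonic anhydrase, was highest on deficient replicate 3 at 13.37 and Slc26a3, a chloride exchanger, read 11.05 on control replicate 1 against 10.78 and 10.34 on control replicates 2 and 3. Deficient replicate 3 and control replicate 1 are called the small intestine profile here although they are labelled colon, and the other 4 arrays, 2 per genotype, the colon profile. This split was made from the data (Fabp6, the ileal bile acid binding protein, above Car1). How many of all probe sets were higher on every colon array than on both small intestine arrays was not computed. For Lyz2, Ang4, Itln1, Pla2g2a and the 2 brighter Lyz1 probe sets the genotype difference is given over all arrays and within each profile. For most other genes it is given over all arrays only, and it can differ between the profiles. Homeobox genes also differed by genotype within the colon profile. Hoxb13 read 3.76 and 7.30 on the deficient arrays against 2.26 and 2.25 on the control arrays. Hoxd10 read 3.91 and 2.29 against 6.59 and 6.51, and Hoxa10 8.92 and 8.88 against 7.23 and 7.07. Hoxd13 was under log2 4 on all arrays. Whether these 4 arrays came from the same part of the colon was not tested. Xist, the RNA that silences an X chromosome in females, was at 12.11 on control replicate 2 and at 2.25 on every other array. Control replicate 2 is 1 of the 2 control arrays of the colon profile. Array medians ran from 3.02 to 3.10, the lowest value in the table was 2.25, and values under 4 are near that floor. The number of arrays limits the precision, and in bulk tissue fewer cells of a type and less RNA per cell cannot be told apart. Pparg itself, on its only probe set (1420715_a_at), read 8.77, 8.23 and 4.15 on the deficient arrays against 5.28, 9.91 and 9.54 on the control arrays.

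**Figure D1:**
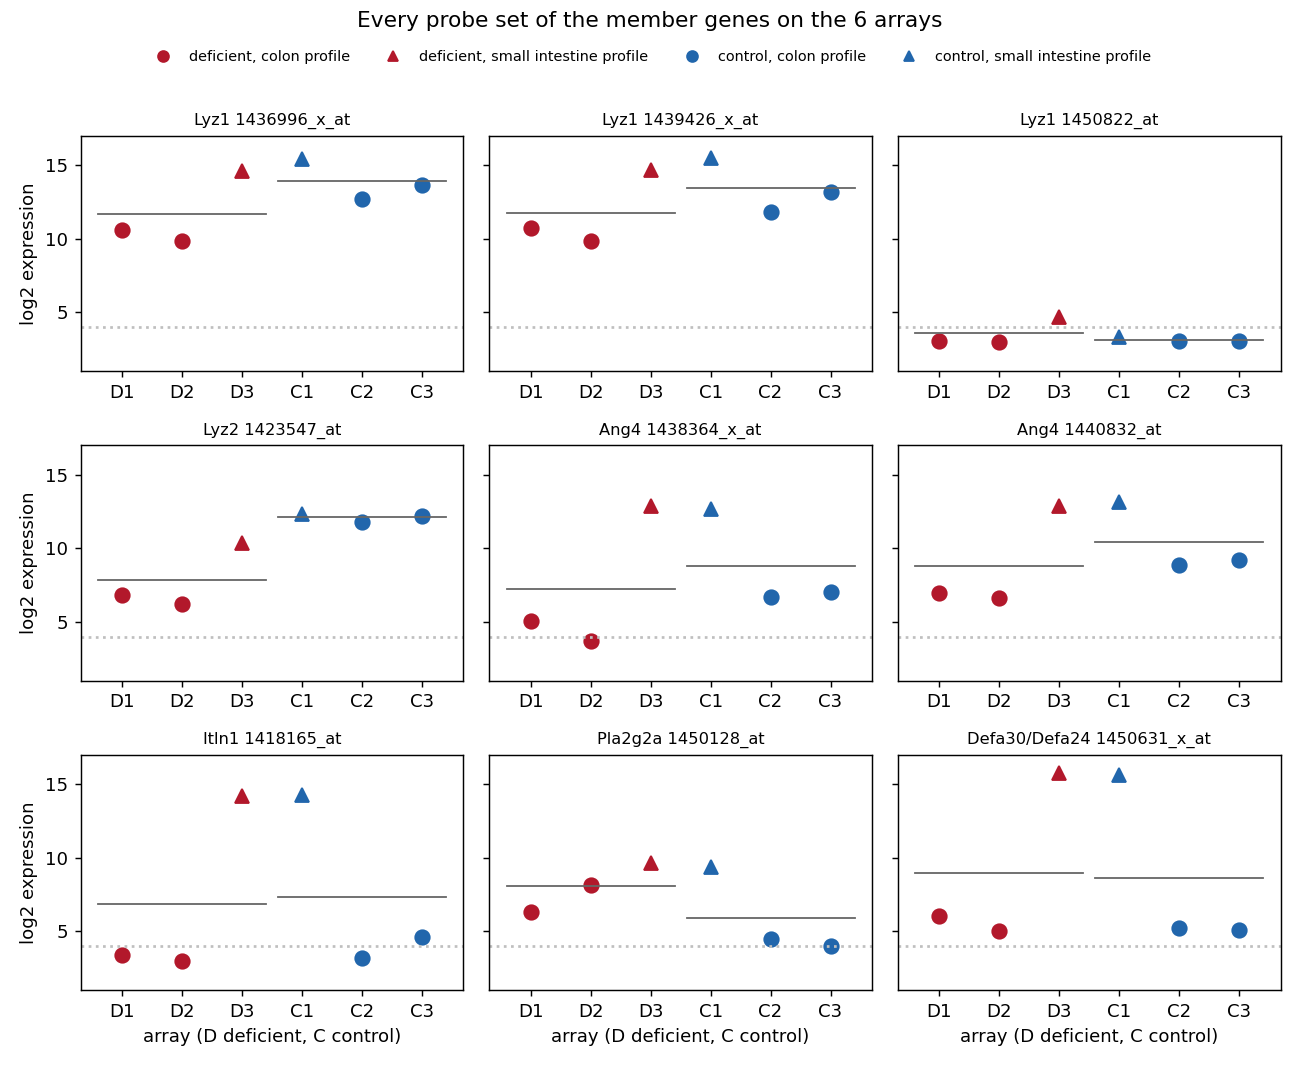
Log2 expression of the 8 probe sets of 5 genes and of the probe set shared by Defa30 and Defa24 on each array, with deficient arrays (D1 to D3, red) left of control arrays (C1 to C3, blue). Circles are arrays of the colon profile, triangles arrays of the small intestine profile, grey lines are group means and the dotted line is log2 4. Triangles lie above all circles except for Lyz2, where deficient replicate 3 (10.39) lies below the control arrays.

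Lyz2, the lysozyme of myeloid cells, read 6.80, 6.24 and 10.39 on the deficient arrays against 12.32, 11.79 and 12.19 on the control arrays (1423547_at). All 3 deficient arrays lay below all 3 control arrays, and Lyz2 was the only one of the 7 probe sets above log2 4 on at least 3 arrays for which the groups did not overlap. Among the 17031 single-gene probe sets that passed this filter, all deficient arrays lay below all control arrays for 4.16% and above them for 8.51%. The mean was 7.81 ± 2.25 in deficient and 12.10 ± 0.27 in control samples (SD, n = 3 each), so the log2 difference was -4.29 (standard error 1.09). Counted from the most negative, this difference had rank 5 of 17031 over all arrays and rank 2 on the colon profile. On the 4 arrays of the colon profile the difference was -5.47, and between the 2 arrays of the small intestine profile it was -1.93. The control arrays were close together, at 12.32 on the small intestine profile and 11.79 and 12.19 on the colon profile, whereas the deficient arrays stood apart at 10.39 against 6.80 and 6.24.

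The first pair of Lyz1 probe sets moved with the gut profile and, within each profile, was lower on the deficient arrays. Probe set 1436996_x_at read 10.58, 9.84 and 14.58 on the deficient arrays against 15.41, 12.66 and 13.63 on the control arrays. Probe set 1439426_x_at put the arrays in the same order, at 10.74, 9.86 and 14.65 against 15.45, 11.78 and 13.15. It was lower than 1436996_x_at by 0.88 on control replicate 2 and by 0.48 on control replicate 3, the control arrays of the colon profile. On both, each of the 2 small intestine arrays was above all 4 colon arrays, and the groups overlapped over all arrays only through deficient replicate 3. Group means of 1436996_x_at were 11.66 ± 2.55 in deficient and 13.90 ± 1.40 in control samples (SD, n = 3 each), so the difference was -2.24 (standard error 1.39), and the difference of 1439426_x_at was -1.71 (standard error 1.50). Within the colon profile the differences were -2.94 and -2.16, with both deficient arrays below both control arrays, and between the small intestine arrays they were -0.84 and -0.80.

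The last Lyz1 probe set disagreed with the other two. Probe set 1450822_at read 3.02, 2.97 and 4.71 on the deficient arrays against 3.29, 3.02 and 3.02 on the control arrays. It stayed near the floor on 5 arrays and passed log2 4 only on deficient replicate 3, so it did not enter the fit. On control replicate 1, where 1439426_x_at had its highest value of 15.45, it read 3.29. The suffix _x_at marks probe sets whose probes can bind other transcripts, and both bright Lyz1 probe sets carry it while 1450822_at and the Lyz2 probe set do not. The probe sequences were not used here, so how far the bright Lyz1 signal includes Lyz2 transcript was not tested. The value of 1436996_x_at minus that of 1439426_x_at was -0.17, -0.03 and -0.07 on the deficient arrays against -0.04, 0.88 and 0.48 on the control arrays. Lyz1 1436996_x_at read above the Lyz2 probe set by 3.77, 3.60 and 4.19 on the deficient arrays against 3.10, 0.87 and 1.43 on the control arrays, so these probe sets did not run in parallel.

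**Figure D2:**
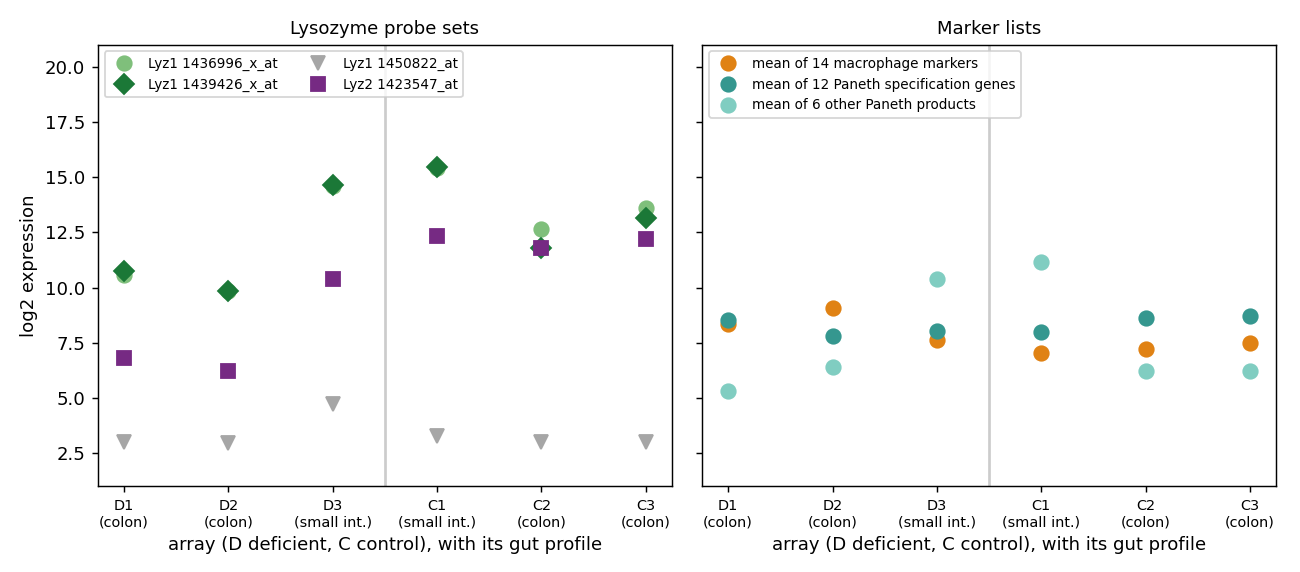
Left, log2 expression of the 4 lysozyme probe sets on each array; right, the mean log2 level of 14 macrophage markers, 12 Paneth specification genes and 6 other Paneth products on the same arrays, with deficient arrays (D) left of control arrays (C) in both panels. Lyz2 lies between 6.24 and 10.39 on deficient arrays and between 11.79 and 12.32 on control arrays, while the macrophage mean is 7.64 to 9.07 on deficient arrays and 7.02 to 7.48 on control arrays.

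Markers of the myeloid cells that express Lyz2 ran the other way from Lyz2. Of 15 macrophage markers 14 were measured, meaning a probe set of their own past the filter, and 13 were higher and 1 (Cx3cr1, a chemokine receptor, at -0.31) was lower in deficient samples, with a median difference of 1.14 beside 0.04 over all 17031 probe sets, of which 44.4% were lower. Their summed log2 level was 106.95 to 126.97 on deficient arrays and 98.25 to 104.72 on control arrays. The 3 brightest were Csf1r, the receptor for the macrophage growth factor, higher by 0.64, Mpeg1, a pore-forming protein, by 0.97, and Laptm5, a lysosomal membrane protein, by 1.07. Of the 10 neutrophil markers only S100a8 and S100a9, the subunits of calprotectin, were measured, and their summed level was 13.91 to 24.12 on deficient and 7.82 to 16.68 on control arrays. The granule genes Mpo, Elane, Ltf, Ngp and Camp and the receptor Cxcr2 were under log2 4 on all 6 arrays. By limma, with p adjusted over all probe sets, 0 of these 16 markers passed the threshold of 0.05, and 6 of the 14 macrophage and both neutrophil markers had an unadjusted p under 0.05, as did 7.12% of all probe sets. Within the colon profile the macrophage median was 1.40, where Lyz2 differed by -5.47, and between the small intestine arrays it was 0.59. The marker median and Lyz2 thus differed in opposite directions within both profiles, although single markers such as Cx3cr1 did not.

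Adipocyte markers were, like Lyz2, lower on average in deficient samples. Of 5 listed, Adipoq, which encodes adiponectin, and Retn, which encodes resistin, were measured. Their summed level was 11.15 to 16.01 on deficient and 17.03 to 21.05 on control arrays, the median difference was -2.23, and 0 passed the test (1, Adipoq, with an unadjusted p under 0.05), while Lep was under log2 4 on every array. Adipoq read 8.75, 8.16 and 9.43 on the deficient arrays against 10.15, 11.24 and 10.16 on the control arrays. The part of fat tissue in the Lyz2 difference was not tested.

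The genes whose values over the 6 arrays were most like those of Lyz2 were Cyp4b1, a cytochrome P450, Osr2, a zinc finger transcription factor, and Thrsp, a regulator of lipid synthesis. Likeness was the root mean square difference of log2 values after each gene was centred on its own mean, and it was 0.67 for Cyp4b1, 0.84 for Osr2 and 0.92 for Thrsp. Cyp4b1 read 6.14, 4.70 and 7.69 on the deficient arrays against 10.06, 9.65 and 9.81 on the control arrays. Like Lyz2, each of the 3 had all deficient arrays below all control arrays, which follows from how they were chosen. The genes most like Lyz1 (1436996_x_at) were Guca2b, which encodes the gut peptide uroguanylin, at 0.44, Dpyd, a pyrimidine-degrading enzyme, at 0.45 and Hhip, a hedgehog-binding protein, at 0.45. Those most like Ang4 (1440832_at) were Adh6a, an alcohol dehydrogenase, at 0.47, and the amino acid transporters Slc7a9 at 0.48 and Slc6a20a at 0.51.

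Genes beside the lysozyme pair on chromosome 10 were examined after the values above were seen. Of the 4 nearest protein-coding genes on each side, 6 of 8 were measured, and their differences ran from -1.005 for Slc35e3 to 0.50 for Cpsf6. Slc35e3, of a solute carrier family, read 5.97, 6.36 and 5.88 on the deficient arrays against 6.36, 6.94 and 7.93 on the control arrays. The nearest measured genes were Yeats4, a chromatin protein, on the Lyz2 side at 0.26 and Cpsf6, an mRNA cleavage factor, on the Lyz1 side. Yeats4 was the 1 of the 6 with all deficient arrays above all control arrays (8.51% of all probe sets), and 0 had them all below (4.16%). Within the colon profile the differences ran from -1.27 for Slc35e3 to 0.76 for Cpsf6. None of the 6 had a difference near the -4.29 of Lyz2 over all arrays.

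Ang4, the microbicidal ribonuclease, was high on both small intestine arrays and lower on the deficient than on the control arrays of the colon profile. Probe set 1440832_at read 6.97, 6.65 and 12.84 on the deficient arrays against 13.13, 8.88 and 9.22 on the control arrays. Probe set 1438364_x_at read 5.03, 3.71 and 12.85 against 12.64, 6.69 and 6.99. The order of the arrays was the same on both within the colon profile, with both deficient arrays below both control arrays, while the small intestine pair lay within 0.29 on each. Over all arrays the difference was -1.59 (standard error 2.01) for 1440832_at and -1.58 (standard error 2.84) for 1438364_x_at, less than the spread within groups. Within the colon profile the differences were -2.24 and -2.47, and between the small intestine arrays -0.29 and 0.21. The relative Ang, which encodes angiogenin, had 3 probe sets that disagreed over all arrays. Its brightest (1450717_at) read 7.26, 6.74 and 7.83 on the deficient arrays against 8.44, 8.73 and 8.60 on the control arrays, whereas 1438936_s_at was at 9.95 on deficient replicate 3 and between 3.60 and 4.80 on the other 5. Over all arrays the differences were -1.31 for 1450717_at, -0.34 for 1438937_x_at and 1.37 for 1438936_s_at, so the direction there depends on the probe set. Within the colon profile both deficient arrays lay below both control arrays on all 3. The differences were -1.67, -1.30 and -0.65 in the same order, and both deficient values of 1438936_s_at were under log2 4. Between the small intestine arrays 1450717_at was lower on the deficient array, while 1438937_x_at and 1438936_s_at were higher.

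Itln1, the intelectin gene, followed the gut profile. It read 3.39, 2.98 and 14.18 on the deficient arrays against 14.26, 3.19 and 4.62 on the control arrays (1418165_at). The small intestine arrays differed by -0.08, and on the colon profile 3 of the 4 arrays were under log2 4. The difference over all arrays was -0.51 (standard error 4.16), and within the colon profile, where the groups overlapped, it was -0.72. The filter kept this probe set only through control replicate 3 and the small intestine pair.

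The phospholipase gene Pla2g2a had the only one of the 7 fitted probe sets with a higher mean in deficient samples. This probe set (1450128_at) read 6.34, 8.17 and 9.66 on the deficient arrays against 9.37, 4.47 and 3.99 on the control arrays. On the colon profile both deficient arrays were above both control arrays, with a difference of 3.03, and the small intestine pair differed by 0.28. The means were 8.06 ± 1.66 in deficient and 5.94 ± 2.98 in control samples (SD, n = 3 each), so the difference was 2.11 (standard error 1.63). The reference annotation of C57BL/6J lists Pla2g2a as a transcribed pseudogene, since this strain carries a frameshift in the gene, so the values are those of a transcript without the working enzyme.

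Defa24 could be followed only together with Defa30. Their shared probe set (1450631_x_at) read 6.08, 5.02 and 15.79 on the deficient arrays against 15.62, 5.25 and 5.07 on the control arrays. The small intestine pair lay above all colon arrays and differed by 0.16, and within the colon profile the groups overlapped. Other alpha-defensin probe sets were read after these values were seen. Defa31 (1422934_x_at) was at 5.74, 5.06 and 14.73 on the deficient arrays against 16.16, 6.66 and 4.23 on the control arrays, and Defa39 (1429378_x_at) at 3.60, 4.27 and 13.60 against 13.64, 4.18 and 3.97. Of the 5 alpha-defensin probe sets on the array, these 3 were high on both small intestine arrays. The probe set that names Defa22 and Defa21 (1436857_at) was at 13.23 on deficient replicate 3 and at 2.25 on the other 5 arrays, control replicate 1 included.

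**Figure D3:**
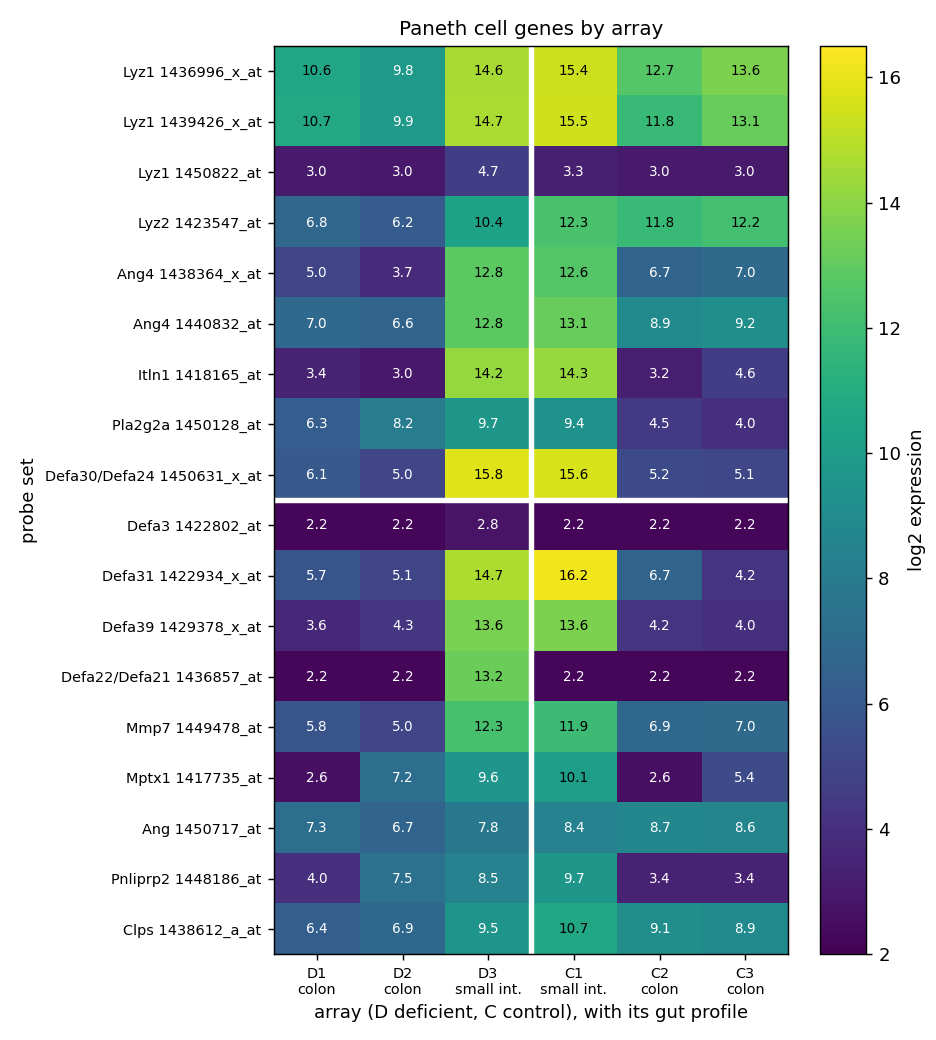
Log2 expression (colour and printed value) of the 9 probe sets described above over the horizontal white line, and of further alpha-defensin probe sets and other Paneth cell products below it, with deficient arrays (D) left of control arrays (C). Most rows are bright on D3 and C1 together; the probe set of Defa22 and Defa21 is bright on D3 alone, at 13.23, and Lyz2 is bright on the 3 control arrays.

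Over the 7 fitted probe sets, 6 had a lower and 1 a higher mean in deficient samples, beside 44.4% lower among all 17031. By limma, 0 of the 7 passed an adjusted p under 0.05 (0.00587% of all, that is 1 probe set), with adjusted p from 0.680 to 0.985, and 1 of them, that of Lyz2, had an unadjusted p under 0.05 (7.12% of all). Both small intestine arrays lay above all colon arrays for 6 of the 7, beside 13.9% of all probe sets, and the genes were chosen in view of this. On the colon profile both deficient arrays lay below both control arrays for 5 of the 7, from 3 genes (18.4% of all probe sets), and above them for 1 (28.9%). Lyz1 and Ang4 supply 2 probe sets each, so these are not independent. Without deficient replicate 3, the deficient array with the highest Lyz2 value, Lyz2 passed the limma test with an adjusted p of 0.0373 and a difference of -5.58. In that fit a control array alone carried the small intestine profile, and 3 of 17031 probe sets passed, against 1 in the main fit. Over the other settings the adjusted p of Lyz2 ran from 0.0723 to 0.977. Single arrays also set the size of the other differences: without control replicate 1 that of Ang4 on 1440832_at was -0.23 and that of Lyz1 on 1439426_x_at was -0.71, and without deficient replicate 3 they were -3.60 and -3.16.

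**Figure D4:**
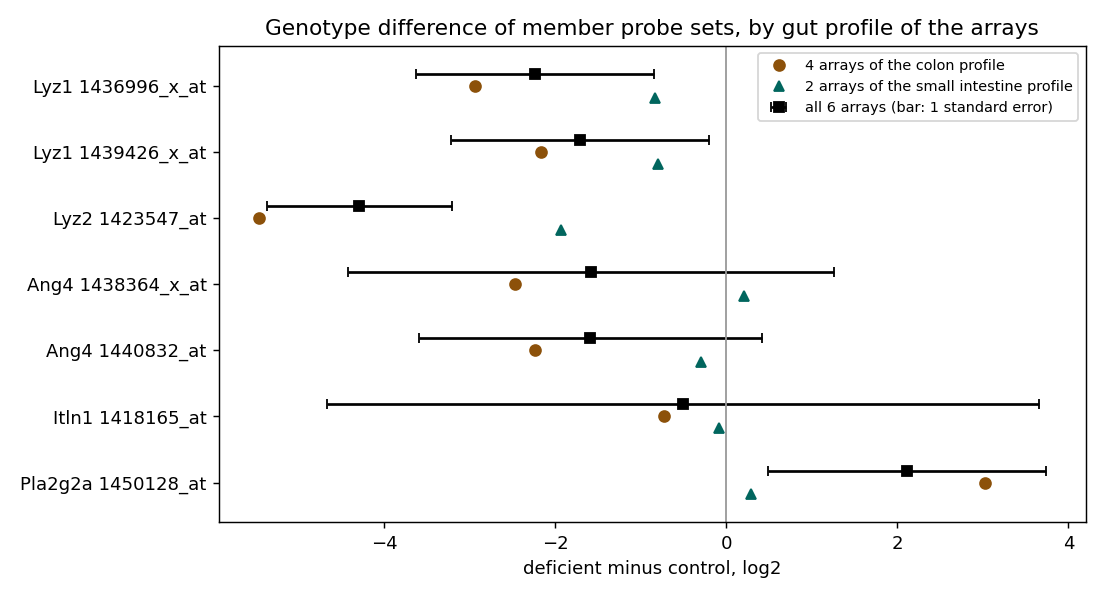
Genotype difference (deficient minus control, log2) of the 7 fitted probe sets over all 6 arrays (black squares, bars of 1 standard error), among the 4 arrays of the colon profile (brown circles) and between the 2 arrays of the small intestine profile (green triangles). Within the colon profile the values run from -5.47 for Lyz2 to 3.03 for Pla2g2a, and between the small intestine arrays from -1.93 for Lyz2 to 0.28 for Pla2g2a.

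Other secreted products of Paneth cells were read from a list of 26 names, of which 8 had a probe set of their own and 6 were measured. Of the 6, 2 were higher and 4 lower in deficient samples, 0 passed the test (1, Ang, had an unadjusted p under 0.05), and the median difference was -0.72 beside 0.04 over all probe sets. Mmp7, the matrilysin that activates alpha-defensins in mice, read 5.77, 5.005 and 12.26 on the deficient arrays against 11.92, 6.91 and 7.00 on the control arrays. Like Ang4, it was lower on both deficient than on both control arrays of the colon profile, with a difference of -1.56, and the small intestine pair differed by 0.34. Clps, which encodes pancreatic colipase, read 6.40, 6.91 and 9.52 against 10.70, 9.15 and 8.90. Of 9 markers of exocrine pancreas only Cela1, an elastase also made outside the pancreas, was measured (0.46 as a difference, not past the test, nor with an unadjusted p under 0.05), and Cpa1, Cela2a, Prss2, Ctrb1 and Cel were under log2 4 on all arrays. Defa31, the brightest measured gene of the list, is described above.

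Of 16 listed genes that specify Paneth and other secretory cells or serve their secretion, 12 were measured. Both small intestine arrays lay above every colon array for 2 of the 12, beside 13.9% of all probe sets. They lay below every colon array for 4, and the share of all probe sets in that order was not computed. By genotype, 4 were higher and 8 lower in deficient samples, 0 passed the test and 0 had an unadjusted p under 0.05, and the median difference was -0.31. Their summed level was 93.75 to 102.39 on deficient and 96.00 to 104.32 on control arrays, so the groups overlapped. The 3 brightest were Cd24a, a surface glycoprotein of Paneth and other crypt cells, at -0.59, Xbp1, the transcription factor of the secretory endoplasmic reticulum, at 0.34, and Fzd5, the Wnt receptor required for Paneth cell maturation, at -0.43. On the colon profile 7 of the 12 had both deficient arrays below both control arrays and 0 had them above (median -0.48), beside 18.4% and 28.9% of all probe sets. Goblet cells are the other large secretory population of the crypt. All 8 of their markers were measured, 5 higher and 3 lower, 0 past the test or with an unadjusted p under 0.05, with a median of 0.06, and Zg16, Muc2 and Tff3, a lectin, the main mucin and a trefoil peptide, differed by 0.07, -0.34 and 0.04.

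The enzyme families of the lysozymes and angiogenins offered few measured relatives. Of 15 names 13 had a probe set of their own, and 10 of them, among them Lyzl1, Lyzl4, Lyzl6, Lyg1 and Lyg2, were under log2 4 on all 6 arrays. Rnase4, a secreted ribonuclease, and Ang were measured, both lower in deficient samples on their brightest probe sets with a median difference of -1.07 and neither past the test, Ang with an unadjusted p under 0.05. Rnase4 read 12.38, 11.44 and 11.69 on the deficient arrays against 12.31, 12.50 and 13.16 on the control arrays. Markers of the 2 gut segments include the genes that set the profile. Of 12 small intestine enterocyte markers 7 were measured. All 7, Fabp6 included, were higher on both small intestine arrays than on every colon array, beside 13.9% of all probe sets. By genotype 1 was higher and 6 lower, with a median of -1.01. The 3 brightest were Fabp2 at -1.01, Apob at -0.59 and Fabp6 at -1.05. Of 9 colon markers 6 were measured, with 3 of the 6, Car1 included, higher on every colon array than on both small intestine arrays. The share of all probe sets in that order was not computed. All 6 colon markers were higher in deficient samples over all arrays with a median of 1.42. The 3 brightest were Car4 at 1.33, Car1 at 0.55 and Slc26a3 at 0.43. On the colon profile 5 of the 6 had both deficient arrays above both control arrays (28.9% of all probe sets). Car1 had them below (18.4% of all), at -1.26. Between the small intestine arrays Car1 differed by 4.19, and only Slc26a3 was lower, at -0.73. From either list 0 genes passed the test (0 of the 7 and 2 of the 6 with an unadjusted p under 0.05). On the 4 colon arrays the summed level of the 7 small intestine markers was 59.29 and 41.15 for the deficient genotype against 53.69 and 55.55 for the control genotype, and their part in the colon-profile differences of Lyz1 and Ang4 was not tested.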

How the data were processed

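Total RNA of 6 mice, 3 deficient and 3 control, was measured on Affymetrix Mouse 430 2.0 arrays, 1 per mouse. The deposited values are log2 expression summaries that the authors computed using GCRMA (per the submitters' processing notes). GCRMA removes background estimated from the base makeup of each probe. Its version and settings are not stated in the labels. Unbound probe sets share a floor, which compresses differences of genes near it. The log2 scale was read from the values (2.25 to 16.2). With 3 arrays per group, that number sets the precision.

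Of 45101 probe sets 34958 named 1 gene, 932 several and 9211 none, by the platform annotation. Symbols were looked up by Entrez identifier in the RefSeq gene table (GRCm38.p6), and 0 changed. Single-gene probe sets above log2 4 on at least 3 arrays, 17031, were each fitted with limma 3.58.1 in R 4.3.3 (lmFit, eBayes, two-sided, deficient minus control, no covariate), with Benjamini-Hochberg adjustment over all and a threshold of adjusted p under 0.05. The fit was tested on simulated data. Named genes were the 6 members, the 3 brightest measured genes of each list (by their kept probe set with the highest mean), the 3 genes most like Lyz1, Lyz2 and Ang4, Pparg, and Apoa1, Fabp6, Car1 and Hoxa10 for the gut profile; other genes named, such as Cx3cr1, Aqp8, Retnlb, Rnase1, Mptx1 and Pnliprp2, were chosen after their values were seen. Lists covered other Paneth products, Paneth specification and secretion, lysozyme and ribonuclease relatives, and markers of macrophages, neutrophils, goblet cells, small intestine enterocytes, colon, exocrine pancreas and adipocytes. The members and lists were chosen with earlier results of these data known. The promoters came from RefSeq (GRCm38.p6), and pairs were aligned globally. Alternatives covered the filter, normalization, variance model, array weights, a floor, the probe set summary, suffixes, a replicate block, the gut profile and leaving out arrays.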

Additional observations from a re-analysis of the deposited data

Results flagged for a closer look

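Ang4 on probe set 1438364_x_at went opposite ways in the 2 gut profiles: the difference was -2.47 on the 4 colon arrays, with both deficient arrays below both control arrays, and 0.21 between the 2 small intestine arrays. The difference between the profiles was not tested, the small intestine value rests on 1 array per genotype, and the other Ang4 probe set (1440832_at) gave -2.24 and -0.29.

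The probe set that names Defa22 and Defa21 (1436857_at) took no part in the comparison, which was limited to probe sets naming 1 gene. It was also under log2 4 on 5 arrays, so it would not have passed the filter. It stood at 13.23 on deficient replicate 3 and at 2.25, the floor, on all control arrays, including control replicate 1 with its small intestine profile.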

How the results depend on the processing

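No member probe set passed an adjusted p under 0.05 in 19 of 20 alternatives. The replicate block (0 past the threshold), both gut profile settings and an adjusted p under 0.1 were among them. In fits without 1 array the count ran from 0 to 1. Lyz2 was the 1 that passed, without deficient replicate 3, where 3 of all 17031 probe sets passed. Leaving out each array in turn moved the Lyz2 difference between -5.58 and -3.50, and it ran from -5.47 to -4.28 in the 13 other settings, with the direction kept in all 19; with a replicate block it was -4.29 with a limma adjusted p of 0.913. The labels name no pairing of same-numbered deficient and control arrays. The correlations of their deviations from the group means were -0.52, 0.36 and -0.58. The highest correlation of any deficient with any control array, 0.68, was between the arrays of the small intestine profile. These values follow the gut profile, so they cannot show or exclude a pairing. Without 1 array Itln1 ran from -4.17 to 2.94 and Ang4 on 1438364_x_at from -4.41 to 0.35, both changing sign. Leaving out an array also makes the share of small intestine arrays unequal between the genotypes. The part of this in the sign changes was not tested. Lyz1, Ang4 on 1440832_at and Pla2g2a kept their direction in every setting that held their probe sets (those ending in _x_at have no value where suffixes were left out), but without 1 array their size moved by over 1.5 times: Lyz1 on 1436996_x_at ran from -3.69 to -1.32 and on 1439426_x_at from -3.16 to -0.71, Ang4 on 1440832_at from -3.60 to -0.23 and Pla2g2a from 1.13 to 3.83. Without both small intestine arrays the differences were -2.94 and -2.16 for Lyz1, -2.47 and -2.24 for Ang4, -0.72 for Itln1 and 3.03 for Pla2g2a. Signals near the floor, as for Itln1 on the colon arrays and Lyz1 on 1450822_at, carry no reliable order.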

Other observations

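The genes here were chosen after their values were seen. Some stood apart on 1 of the 2 arrays with a small intestine profile. Retnlb, a goblet cell lectin induced by microbes, was at 14.10, 12.66 and 11.64 on the deficient arrays against 2.32, 11.45 and 12.73 on the control arrays, so it was near the floor on control replicate 1 alone. Rnase1, the pancreatic-type ribonuclease, was at 4.36 on deficient replicate 3 and between 2.49 and 2.77 on the other 5 arrays. Mptx1, a pentraxin of the gut mucosa, varied within the colon profile, at 2.62 and 7.22 on the deficient against 2.62 and 5.35 on the control arrays. Pnliprp2, a lipase, read 4.04 and 7.46 on the deficient colon arrays against 3.41 and 3.38 on the control ones, where both values are near the floor.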
